A study of Mus musculus with 6 samples.

Results

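The immunoglobulin kappa variable (Igkv) genes were described across 6 RNA-Seq libraries of long-term CML stem cells, 3 from Gdpd3+/+ and 3 from Gdpd3-/- mice. Members were all rows of the FPKM table with a name starting with Igkv and the type IG_V_gene, which gave 97 of 36976 genes. The rule used names and types, but the family was picked from these data with the lower immunoglobulin values of the Gdpd3-/- libraries already known, so its genotype differences in level are given as a description. FPKM is a level scaled to gene length and to the depth of the library. It eases comparison between genes of different length, but not with rows shorter than a read.

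All mice were C57BL/6 and carried SCL-tTA and TRE-BCR-ABL1, a pair of transgenes in which BCR-ABL1 is switched on in blood stem and progenitor cells when doxycycline is withdrawn, and cells were taken 5 weeks after CML induction. The sort kept lineage-negative Sca-1+ cKit+ bone marrow cells with the CD150+ CD48- CD135- phenotype, and its lineage antibodies included B220, a B cell surface protein. Gdpd3-/- mice carry a deletion of a few bases early in the coding sequence of Gdpd3, a lysophospholipase D gene. The Gdpd3+/+ libraries came from 22 males and 12 females and the Gdpd3-/- libraries from 5 males and 5 females, so mice were pooled, and which mice entered which library is not given in the sources used here. Covered bases amounted to 4.98, 6.28 and 6.13 Gb in Gdpd3+/+ replicates 1, 2 and 3 and to 2.13, 3.64 and 2.51 Gb in Gdpd3-/- replicates 5, 6 and 7. Gdpd3 itself was at 7.30, 3.29 and 2.95 FPKM in the Gdpd3+/+ libraries and at 0.110, 0.0129 and 0.681 FPKM in the Gdpd3-/- libraries.

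A kappa light chain is encoded by 1 variable segment joined by recombination to 1 of the short joining segments (Igkj) and spliced to the constant gene Igkc. Daughter cells inherit the rearranged segment, but separate clones can use the same one, so the level of a segment does not count clones. Plasma cells carry far more of this RNA than other B cells. Blood stem cells have not rearranged the locus. In mice the heavy chain segment Ighv11-2 is known to pair with Igkv14-126 in B-1a cells, whose antibodies bind phosphatidylcholine.

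The 97 segments lay on chromosome 6 between 67505630 and 70654171 (mm9), 37 on the forward strand and 60 on the reverse strand. They fell into 19 families by the first number of their name, of which Igkv4 was the largest with 24 segments and 7 had 1 segment. Spliced lengths ran from 123 to 374 bases. The table gave 2 exons, a leader and a V exon, for 81 segments and 1 exon for 16. In the newer GENCODE M21 annotation (GRCm38), 92 of the 97 names were V genes and 5 were listed as pseudogenes. Those 5, Igkv17-134, Igkv2-116, Igkv4-73, Igkv4-56 and Igkv12-47, had mean levels of 0.345 to 6.94 FPKM and never held more than 0.0654% of the Igkv signal of a library.

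Igkv14-126 led in every library and is shown first. Its V exon lies at chr6:67896345-67896642 on the forward strand of GRCm38, and the capitals mark the bases from the last in-frame cysteine codon to the end, the germline part of the antigen-binding loop formed at the junction.
Igkv14-126 V exon: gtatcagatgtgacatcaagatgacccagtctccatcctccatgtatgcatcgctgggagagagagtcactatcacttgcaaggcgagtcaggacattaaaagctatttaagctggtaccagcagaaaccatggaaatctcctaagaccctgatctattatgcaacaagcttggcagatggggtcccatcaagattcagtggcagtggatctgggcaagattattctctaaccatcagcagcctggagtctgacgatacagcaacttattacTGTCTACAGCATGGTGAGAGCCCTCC

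The ends of the 10 segments with the highest mean FPKM are set side by side because each brings its own bases to the junction with a joining segment. Each run is the last 60 bases of the coding sequence in GENCODE M21, read 5′ to 3′ on the coding strand, with capitals from the last in-frame TGT or TGC codon.
Igkv14-126: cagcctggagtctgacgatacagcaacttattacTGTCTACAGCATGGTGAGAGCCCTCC
Igkv15-103: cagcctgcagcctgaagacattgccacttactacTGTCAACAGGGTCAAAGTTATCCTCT
Igkv19-93: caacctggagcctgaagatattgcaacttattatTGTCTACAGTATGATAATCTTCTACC
Igkv1-88: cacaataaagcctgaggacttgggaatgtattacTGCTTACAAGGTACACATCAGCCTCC
Igkv5-39: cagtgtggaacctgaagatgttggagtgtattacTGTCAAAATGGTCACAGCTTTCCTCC
Igkv6-23: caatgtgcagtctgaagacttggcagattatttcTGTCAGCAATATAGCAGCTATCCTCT
Igkv8-27: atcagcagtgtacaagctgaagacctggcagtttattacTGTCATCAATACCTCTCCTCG
Igkv9-120: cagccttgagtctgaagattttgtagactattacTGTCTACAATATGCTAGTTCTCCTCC
Igkv3-10: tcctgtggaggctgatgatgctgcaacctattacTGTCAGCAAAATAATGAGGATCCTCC
Igkv6-15: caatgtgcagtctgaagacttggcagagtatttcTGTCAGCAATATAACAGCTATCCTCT

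Igkv6-23 and Igkv6-15 were the closest of these 10, with 94.5% identity over the coding sequence, and the median over their 45 pairs was 66.6%. The nearest relative of Igkv14-126 among all members with a sequence was Igkv14-111, at 91.5% identity with a longest shared run of 44 bases, far below the read length of 150 bases. A run of 150 bases or more was shared by 3 of 4186 pairs, namely Igkv5-45 with Igkv5-43, Igkv6-29 with Igkv6-20, and Igkv6-25 with Igkv6-17. Levels of these 6 segments are uncertain because their reads could be split or assigned to either copy. A nearest relative of at least 95% identity was found for 36 of the 92 segments. Their levels carry more of this uncertainty than that of Igkv14-126. The bases added or removed at a junction, and mutations of a rearranged segment, are not visible in levels per gene.

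The Igkv genes were abundant in libraries of sorted stem cells. Their summed level was 58254, 71451 and 73419 FPKM in the Gdpd3+/+ libraries, numbered 1, 2 and 3. The Gdpd3-/- libraries 5, 6 and 7 held 35555, 23251 and 39444 FPKM. All Gdpd3-/- libraries lay below all Gdpd3+/+ libraries, with means of 67708 ± 8246 (SD, n = 3) and 32750.0 ± 8453 (SD, n = 3), a 2.07-fold difference. As a share of all covered bases the Igkv genes held 2.05 to 2.57% in Gdpd3+/+ and 0.804 to 1.38% in Gdpd3-/- libraries. In such bulk samples, fewer cells of a type and less RNA per cell cannot be told apart.

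**Figure D1:**
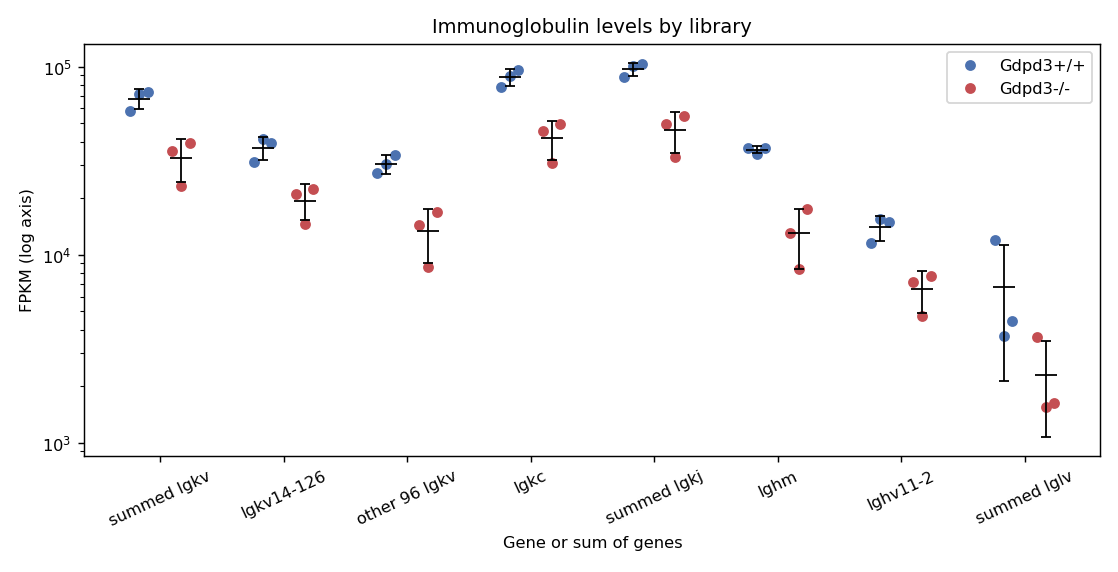
Levels of immunoglobulin genes in FPKM on a log axis, by gene or sum of genes. Points are libraries (Gdpd3+/+ blue, Gdpd3-/- red, n = 3 each), bars the mean and SD. The summed Igkv level is 58254 to 73419 FPKM in Gdpd3+/+ and 23251 to 39444 FPKM in Gdpd3-/- libraries, and the ranges of the summed Iglv levels nearly touch.

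A single segment carried most of the Igkv signal in every library. Igkv14-126 (mm9 chr6:67846171-67846636, forward strand, 2 exons, 353 bases) was at 31068, 41153 and 39284 FPKM in Gdpd3+/+ replicates 1 to 3, against 21182, 14630.4 and 22505 FPKM for Gdpd3-/- replicates 5 to 7. The segment ranked 4, 2 and 3 and then 3, 2 and 3 among all genes of these libraries. The groups did not overlap in its level, although its log2 fold change of Gdpd3-/- over Gdpd3+/+, -0.95 on log2(FPKM + 0.1), was 0.09 after quantile normalization, and limma called neither (adjusted p = 0.14 and 0.88). Its share of the summed Igkv FPKM was 53.3, 57.6 and 53.5% in Gdpd3+/+ and 59.6, 62.9 and 57.1% in Gdpd3-/- libraries. The shares overlapped, because Gdpd3+/+ replicate 2 was above Gdpd3-/- replicate 7. The mean share was 54.8% ± 2.41 (SD, n = 3) against 59.9% ± 2.94 (SD, n = 3), a difference of 5.04 percentage points with p = 0.2 by a two-sided exact permutation test, for which 3 against 3 libraries cannot go below 0.1. Adjusted over the 5 measures of composition tested, this exact test gave p = 0.25.

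The next segment was 5.71 to 12.1 times lower than Igkv14-126, and it was not the same in every library. Igkv15-103 came second in Gdpd3+/+ replicates 1 and 3 and Gdpd3-/- replicate 7, at 4520.0, 3256 and 2707 FPKM. Igkv19-93 came second in Gdpd3+/+ replicate 2 at 7202 FPKM. Igkv6-15 came second in Gdpd3-/- replicate 5 at 1802 FPKM and Igkv4-63 in Gdpd3-/- replicate 6 at 1650 FPKM. Of the 97 segments, 29 reached the 10 highest of some library and 4 those of every library, namely Igkv14-126, Igkv15-103, Igkv19-93 and Igkv5-39.

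**Figure D2:**
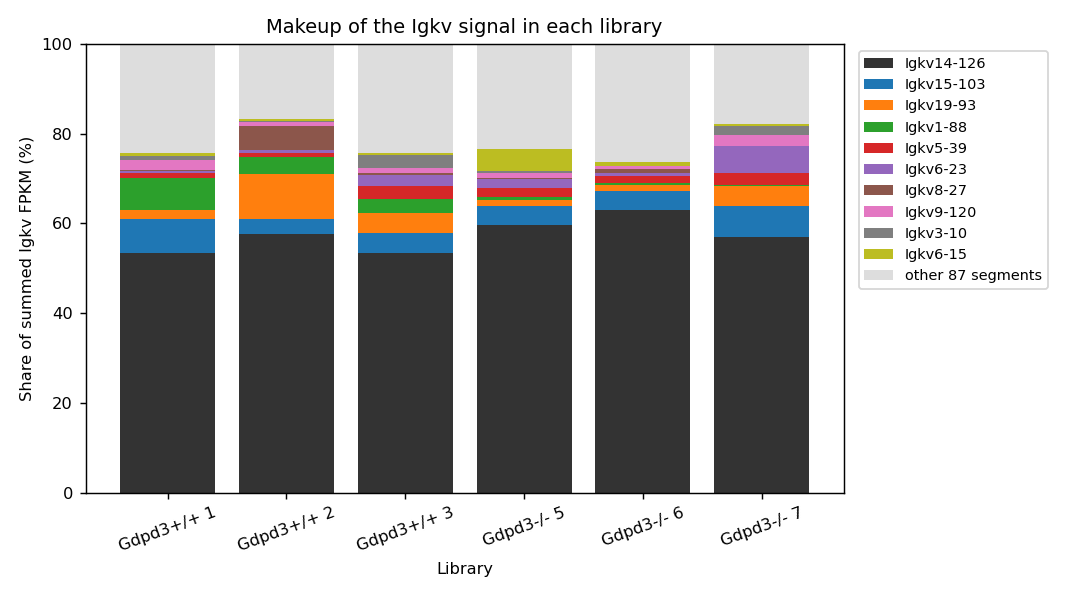
Share of the summed Igkv FPKM (%) taken by each of the 10 segments with the highest mean and by the other 87, 1 bar per library. Igkv14-126 (dark) takes 53.3 to 62.9% of every bar, while the segments above it change from library to library.

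The effective number of segments, the inverse of the summed squared shares, stood for how many equally used segments would give the same dominance. It was 3.34, 2.87 and 3.38 in Gdpd3+/+ and 2.74, 2.46 and 2.94 in Gdpd3-/- libraries, again with overlap through Gdpd3+/+ replicate 2. Its means differed by -0.48 (p = 0.2, adjusted p = 0.25, exact permutation test, n = 3 and 3). Without Igkv14-126 the effective number rose to between 10.5 and 21.9 in Gdpd3+/+ and to between 13.1 and 17.3 in Gdpd3-/- libraries. The 12 to 23 highest segments of a library sufficed for 90% of its Igkv signal.

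The other 96 segments together were at 27186, 30298 and 34135 FPKM in Gdpd3+/+ replicates 1, 2 and 3 and at 14373, 8620.4 and 16939 FPKM in Gdpd3-/- replicates 5, 6 and 7. Their groups did not overlap either, and the ratio of the means was 2.29, beside 1.91 for Igkv14-126 alone. The median segment was at 67.9 to 89.5 FPKM in Gdpd3+/+ and at 5.00 to 29.6 FPKM in Gdpd3-/- libraries.

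All 97 segments were above 0 in some library. FPKM was above 0 for 94 to 96 of the 97 segments in Gdpd3+/+ and for 90 to 94 in Gdpd3-/- libraries, and 88 were above 0 in all 6. Group means of 95.3 ± 1.15 (SD, n = 3) and 91.3 ± 2.31 (SD, n = 3) gave p = 0.2 and adjusted p = 0.25 by the exact permutation test. The Gdpd3-/- libraries were the shallower ones, with 1 read of 150 bases on a segment of the length of Igkv14-126 worth 0.117 to 0.199 FPKM against 0.0677 to 0.0854 FPKM. A segment at 0 may thus be absent or too low for that depth. At 1 FPKM or more, above these floors, stood 81, 87 and 88 segments in Gdpd3+/+ and 73, 73 and 78 in Gdpd3-/- libraries. Those counts did not overlap (p = 0.1, exact permutation test, unadjusted, the smallest value possible here). At 100 FPKM or more stood 41 to 46 segments in Gdpd3+/+ and 24 to 30 in Gdpd3-/- libraries, and 12 were that high in all 6.

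**Figure D3:**
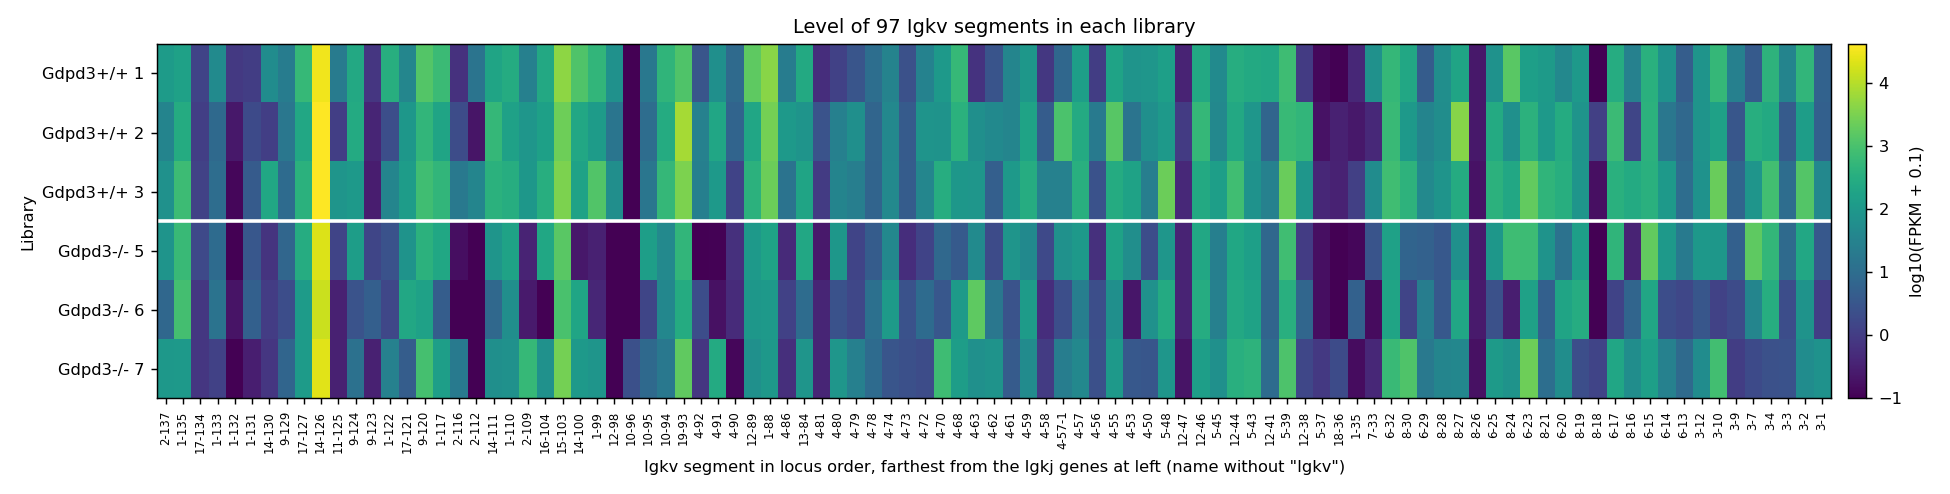
Colour shows log10(FPKM + 0.1) of the 97 Igkv segments (columns, in locus order with the segment farthest from the Igkj genes at left) in each library (rows). The bright column of Igkv14-126 runs through all 6 libraries, and many other columns change between libraries of the same genotype.

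Libraries of 1 genotype differed widely in the lesser segments. Between the highest library of a segment and the next, a gap of more than 3-fold was seen for 30 of the 97 segments. Igkv4-63 was at 1650 FPKM in Gdpd3-/- replicate 6 and at 0.564 to 89.5 FPKM in the other 5 libraries. Igkv8-27 was at 3899 FPKM in Gdpd3+/+ replicate 2 and at 40.3 to 290.2 FPKM elsewhere. Igkv4-57-1, singled out after its values were seen as the third segment of at least 100 FPKM with a gap above 10-fold, was at 1058 FPKM in Gdpd3+/+ replicate 2 and at 2.19 to 68.3 FPKM elsewhere. Igkv3-7 reached 1631 FPKM in Gdpd3-/- replicate 5 but 1.69 FPKM in Gdpd3-/- replicate 7. In all, 12 segments were at 100 FPKM or more in some library and below 1 FPKM in another.

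Igkv6-15 stood at 361.0, 402.3 and 359.2 FPKM in the Gdpd3+/+ libraries and at 1802, 206.1 and 145.5 FPKM in the Gdpd3-/- libraries, so its higher mean in Gdpd3-/- came from replicate 5. Igkv6-23 was highest in Gdpd3-/- replicate 7, at 2350 FPKM, followed by Gdpd3+/+ replicate 3 at 1819 FPKM, and lay between 144.2 and 719.2 FPKM in the others. Igkv3-10 ranged from 1.19 FPKM in Gdpd3-/- replicate 6 to 2142 FPKM in Gdpd3+/+ replicate 3. Igkv9-120 and Igkv5-39 varied less, from 162.9 to 1302 FPKM and from 346.3 to 2177 FPKM. Neither separated the genotypes.

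Ranked over the 97 segments, any pair of Gdpd3+/+ libraries had a Spearman correlation of 0.72 to 0.84. The range was 0.50 to 0.64 for pairs of Gdpd3-/- libraries and 0.53 to 0.75 for pairs of different genotype. Gdpd3+/+ pairs shared 5 of their 10 highest segments, and the pairs within Gdpd3-/- or between genotypes shared 4 to 6. These values describe 97 segments that share libraries and, within families, sequence, and the Gdpd3-/- libraries were also the shallower ones.

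By family, Igkv14 held 54.6 to 58.7% of the Igkv signal in Gdpd3+/+ and 57.5 to 63.8% in Gdpd3-/- libraries, almost all of it from Igkv14-126. The mean shares were 56.3% ± 2.13 (SD, n = 3) and 60.4% ± 3.20 (SD, n = 3), p = 0.2 and adjusted p = 0.25 by the exact permutation test. The other 3 segments of the family took 0.596 to 5.13% of what was left.

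Once Igkv14-126 was set aside, no family led throughout. Igkv1 led in Gdpd3+/+ replicates 1 and 3 with 22.3 and 14.9% of the remaining signal, and Igkv19, a family of 1 segment, led in Gdpd3+/+ replicate 2 with 23.8%. Igkv6 led in Gdpd3-/- replicates 5 and 7 with 23.7 and 20.995%, and Igkv4 in Gdpd3-/- replicate 6 with 25.7%. Within the leading family, Igkv1-88 gave 67.0 and 45.1% of the Igkv1 level in Gdpd3+/+ replicates 1 and 3, Igkv6-15 52.8% of Igkv6 in Gdpd3-/- replicate 5, Igkv6-23 66.1% of Igkv6 in Gdpd3-/- replicate 7, and Igkv4-63 74.4% of Igkv4 in Gdpd3-/- replicate 6. Although Igkv4 had the most segments, its share elsewhere was 5.15 to 13.8%.

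**Figure D4:**
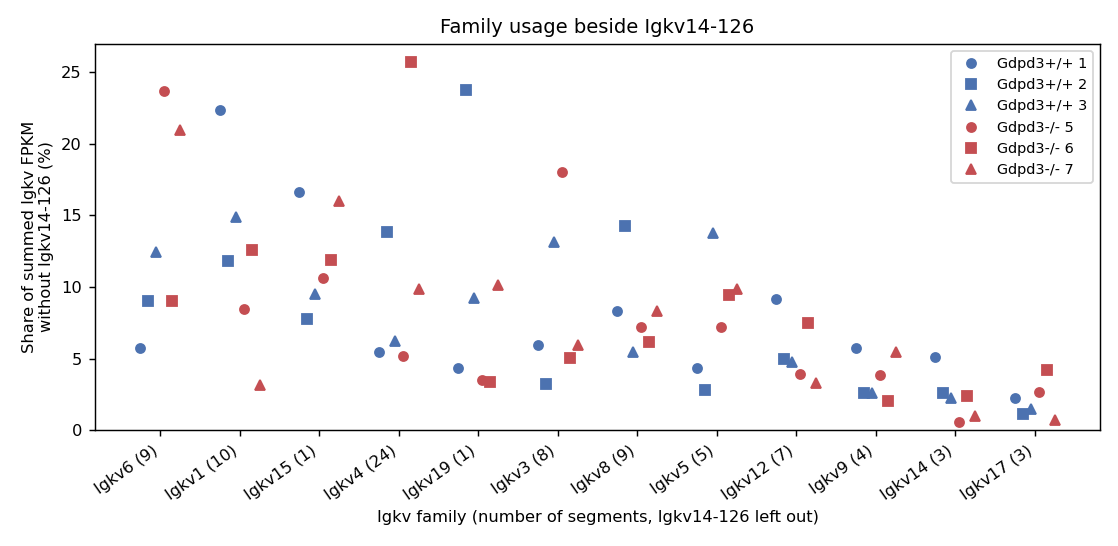
Share of the summed Igkv FPKM without Igkv14-126 (%) in each of the 12 families with the highest mean share, with 1 point per library (Gdpd3+/+ blue, Gdpd3-/- red) and the number of segments in brackets. Igkv4 is at 25.7% in Gdpd3-/- replicate 6 and Igkv19 at 23.8% in Gdpd3+/+ replicate 2, and most families show both colours mixed.

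In level, 5 of the 19 families lay lower in every Gdpd3-/- library than in any Gdpd3+/+ library, beside 8.27% of single genes tested. These were Igkv14, Igkv1, Igkv8, Igkv12 and Igkv10. Igkv1 was at 4915 ± 1256 FPKM (SD, n = 3) in Gdpd3+/+ and at 944.2 ± 366.2 FPKM (SD, n = 3) in Gdpd3-/- libraries, a 5.21-fold difference. Igkv6, by contrast, was at 2846 ± 1347 and 2581 ± 1564 FPKM (SD, n = 3), a 1.10-fold difference within the spread of either group. The mean was lower in Gdpd3-/- for 17 families and higher for Igkv2 and Igkv18, of which Igkv2 followed Igkv2-109 in Gdpd3-/- replicate 7 and Igkv18 did not exceed 1.85 FPKM.

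Among single segments, the mean was lower in Gdpd3-/- for 71 and higher for 26 of the 97. Every Gdpd3-/- library was below every Gdpd3+/+ library for 20 segments (20.6%), beside 8.27% of the 24689 genes tested, and above for 0, beside 23.5%. On log2(FPKM + 0.1), a scale that understates the change of low genes, the median log2 fold change of Gdpd3-/- over Gdpd3+/+ was -1.71 for the 97 segments and 0.24 for all genes. All 97 passed the filter on low values, a mean of 0.05 FPKM.

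Limma called 4 segments lower and 0 higher at an adjusted p below 0.05, beside 0.616% of all genes called lower and 1.09% called higher. At an unadjusted p below 0.05, limma had 29 segments lower, beside 5.76% of all genes, and 0 higher. Nothing is read from these counts, since the family was chosen with this contrast known. Without Gdpd3+/+ replicate 1, 2 or 3 the calls fell to 0, 1 and 2, and without Gdpd3-/- replicate 7 they rose to 12. The segments called with all 6 libraries were Igkv12-98, Igkv4-86, Igkv1-88 and Igkv10-94.

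Igkv1-88 (mm9 chr6:68812259-68813025, reverse strand) was the only one of the 4 among the highest segments, with 4069.9, 2809 and 2294 FPKM in Gdpd3+/+ replicates 1, 2 and 3. The Gdpd3-/- libraries had 183.6, 109.7 and 96.3 FPKM of this segment. It ranked 3 to 5 among the Igkv segments of the Gdpd3+/+ libraries and 20 to 26 in the Gdpd3-/- libraries, and the ratio of its means was 23.5. Igkv10-94 (mm9 chr6:68654502-68654972, reverse strand) was at 482.0, 288.1 and 544.0 FPKM against 43.4, 39.7 and 17.5 FPKM. Its closest relative, Igkv10-95, was 97.1% identical and did not separate the genotypes.

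Igkv4-86 was at 22.4, 111.1 and 13.6 FPKM in Gdpd3+/+ and at 0.374, 1.09 and 0.468 FPKM in Gdpd3-/- libraries. Igkv12-98 was at 68.0, 15.3 and 58.6 FPKM in Gdpd3+/+ replicates 1, 2 and 3, about 775, 220.3 and 823 reads of 150 bases, and was listed at 0 in all 3 Gdpd3-/- libraries, where 3 reads of 150 bases would have given 0.613, 0.359 and 0.520 FPKM. Igkv2-112 was also listed at 0 in all Gdpd3-/- libraries, but its Gdpd3+/+ levels of 14.2, 0.111 and 35.9 FPKM were themselves uneven. In the other direction, the row named Igkv10-96 was listed at 0 in all Gdpd3+/+ libraries and in Gdpd3-/- replicates 5 and 6. It was at 2.26 FPKM in replicate 7. The value in replicate 7 is about 4.67 reads of 150 bases on a row of only 123 bases. GENCODE M21 gives the name Igkv10-96 to a transcript with 347 coding bases that does not match this row. The row's own sequence was therefore not compared with other segments.

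**Figure D5:**
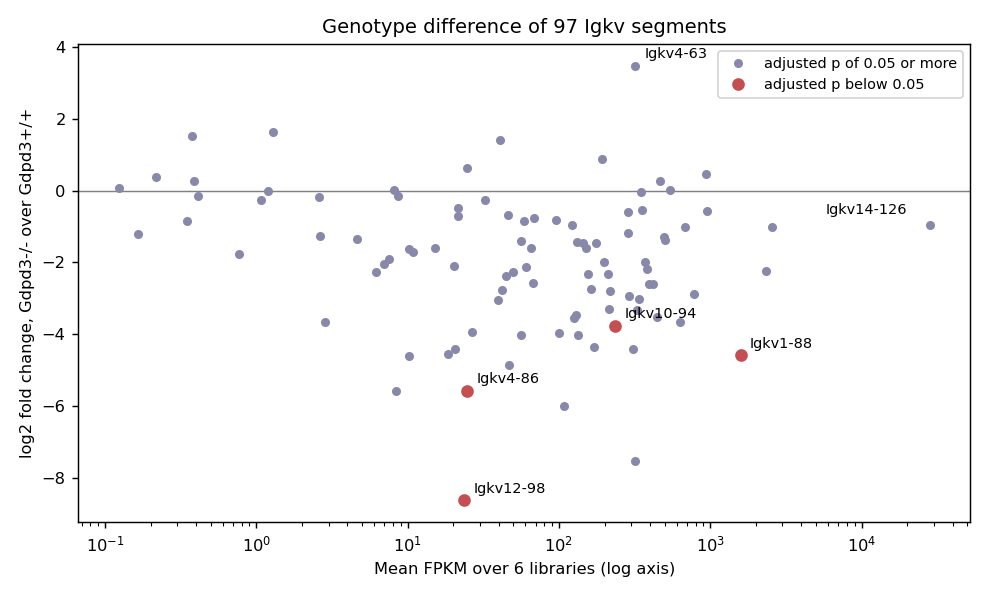
Log2 fold change of Gdpd3-/- over Gdpd3+/+ against the mean FPKM over 6 libraries (log axis) for the 97 segments, with the 4 at an adjusted p below 0.05 in red. Igkv14-126, far to the right at 28304 FPKM, is at -0.95 (0.09 after quantile normalization), and the median of all segments is -1.71.

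The constant gene moved with the variable genes. Igkc was at 78292, 89742 and 96105 FPKM in Gdpd3+/+ replicates 1, 2 and 3 and at 45357, 30660.2 and 49357 FPKM in Gdpd3-/- replicates 5, 6 and 7. Summed Igkv FPKM per Igkc FPKM was 0.744, 0.796 and 0.764 in Gdpd3+/+ and 0.784, 0.758 and 0.799 in Gdpd3-/- libraries. The mean ratios of 0.768 ± 0.0263 (SD, n = 3) and 0.780 ± 0.0206 (SD, n = 3) differed by less than either spread (p = 0.6, adjusted p = 0.6, exact permutation test).

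The joining segments are printed because one of them differs in sequence and in level. Sequences are those of GENCODE M21 (GRCm38), 5′ to 3′ on the coding strand, with capitals on TTCGG, the start of the stretch that encodes the conserved phenylalanine and glycine of joining segments. On the coding strand TTCGG was found in 4 of the 5.
Igkj1: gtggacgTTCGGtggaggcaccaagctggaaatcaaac
Igkj2: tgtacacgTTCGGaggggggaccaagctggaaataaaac
Igkj3: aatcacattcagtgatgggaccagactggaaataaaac
Igkj4: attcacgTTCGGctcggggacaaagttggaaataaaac
Igkj5: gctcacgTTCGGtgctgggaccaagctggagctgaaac

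Igkj3, which lacks these letters and is known as the joining segment that mice do not use, was at 58.9, 88.9 and 113.3 FPKM in Gdpd3+/+ and at 24.7, 12.6 and 17.1 FPKM in Gdpd3-/- libraries, no more than 0.110% of the summed Igkj FPKM of a library. Igkj2 held 29.6 to 41.7% in Gdpd3+/+ and 37.9 to 49.7% in Gdpd3-/- libraries. Igkj4 held 26.6 to 42.3% and 19.7 to 43.9%, Igkj1 18.0 to 24.2% and 10.03 to 18.9%, and Igkj5 5.00 to 9.80% and 8.10 to 11.7%. These genes are 36 to 43 bases long in the table, much shorter than a read, so their FPKM per length cannot be set against those of the V segments.

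The heavy chain showed a single leader as well. Ighv11-2 led the V genes of chromosome 12 in every library, with 11545, 15493 and 14871 FPKM in the Gdpd3+/+ libraries and 7176, 4709 and 7744 FPKM in the Gdpd3-/- libraries, in replicate order. Ighv11-2 held 32.0, 44.6 and 37.8% of the chromosome 12 V signal in Gdpd3+/+ and 47.6, 41.6 and 47.0% in Gdpd3-/- libraries. For each FPKM of Ighv11-2 there were 2.69, 2.66 and 2.64 FPKM of Igkv14-126 in Gdpd3+/+ and 2.95, 3.11 and 2.91 in Gdpd3-/- libraries. This ratio was measured after both levels were seen and carries no test. Both segments are 353 bases long in the table.

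A second pair known from the same antibodies, Ighv12-3 with Igkv4-91, was looked at after the values were seen. Igkv4-91 was at 62.1, 206.4 and 108.3 FPKM in Gdpd3+/+ and at 0.00951, 0.0804 and 268.0 FPKM in Gdpd3-/- libraries. Ighv12-3 was at 111.7, 326.8 and 1202 FPKM and at 77.4, 25.2 and 49.7 FPKM in the same order. The library highest in one was not the highest in the other.

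Lambda light chains were the lesser kind. The 3 Iglv genes summed to 12010.2, 3708 and 4447 FPKM in Gdpd3+/+ and to 3675, 1545 and 1620.1 FPKM in Gdpd3-/- libraries, so that Igkv exceeded Iglv by 4.85, 19.3 and 16.5 times and by 9.67, 15.04 and 24.3 times. Gdpd3+/+ replicate 1 stood apart by its Iglv level. The heavy constant gene of IgM, Ighm, was at 34512 to 37136 FPKM in Gdpd3+/+ and at 8439 to 17567 FPKM in Gdpd3-/- libraries.

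Marker lists were read beside these values. Of 14 plasma cell genes, 13 were lower in every Gdpd3-/- library than in any Gdpd3+/+ library, beside 8.27% of all genes tested. Limma called 4 of the 14 lower, beside 0.616% of all genes. The 14 genes summed to 2711 to 3403 FPKM in Gdpd3+/+ and to 1267 to 2175 FPKM in Gdpd3-/- libraries. The joining chain of secreted IgM, Jchain (listed as Igj), was at 2088, 1958 and 2551 FPKM and at 915.1, 882.0 and 1692 FPKM. Xbp1, a transcription factor of secretory cells, was at 246.2 to 274.8 FPKM and at 113.0 to 158.5 FPKM. Per FPKM of Jchain there were 27.9 to 36.5 FPKM of Igkv in Gdpd3+/+ and 23.3 to 38.9 in Gdpd3-/- libraries, and these ranges overlapped. The part of plasma cell RNA in the Igkv levels was not tested.

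Genes of the B lineage differed widely in level. Cd79a and Cd79b, which encode the signalling subunits of the B cell receptor, were at 12.7 to 33.7 and at 39.5 to 58.7 FPKM, and Cd79b was higher in every Gdpd3-/- library than in any Gdpd3+/+ library. Fcrla, an Fc receptor-like gene of B cells, was at 8.52 to 9.73 FPKM in Gdpd3+/+ and at 1.64 to 3.17 FPKM in Gdpd3-/- libraries, and was the gene of this list that limma called lower (adjusted p = 0.0394). Ms4a1, which encodes a B cell surface protein, did not exceed 1.59 FPKM in any library, and Pax5, a transcription factor of B cell identity, did not exceed 0.174 FPKM. Of 17 B lineage genes found of 18 listed, 3 were lower and 3 higher in every Gdpd3-/- library, beside 8.27% and 23.5% of all genes tested. Limma called 1 of the 17 lower, beside 0.616% of all genes. The sums of the 17 genes, 90.1 to 96.96 FPKM in Gdpd3+/+, lay within the 79.0 to 111.0 FPKM of Gdpd3-/- libraries. The recombinase genes Rag1 and Rag2 did not exceed 1.72 and 0.662 FPKM. A list of 12 genes set up for opening and recombination of the kappa locus held mostly transcription factors beside Rag1 and Rag2. Of these 12, Pou2af1 and Irf4, both also on the plasma cell list, were lower in every Gdpd3-/- library, beside 8.27% of all genes tested. Rag1, Pou2f2, Irf8, Tcf3 and Ikzf1 were higher in every Gdpd3-/- library, beside 23.5% of all genes. By limma, 1 of the 12 was called lower, Irf4 (adjusted p = 0.0275), beside 0.616% of all genes, and 0 were called higher.

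The stem cell label held by its markers, since Kit was at 108.3 to 135.8 FPKM and Ly6a, which encodes Sca-1, at 342.0 to 563.0 FPKM. The 9 stem cell genes summed to 654.9 to 730.4 FPKM in Gdpd3+/+ and to 688.5 to 917.2 FPKM in Gdpd3-/- libraries. The 8 T cell genes summed to no more than 12.9 FPKM. All 12 skeletal muscle genes were higher in every Gdpd3-/- library, beside 23.5% of all genes tested, and limma called 0 of them. The muscle genes summed to 11519, 16545 and 2210 FPKM in replicates 5, 6 and 7 and to 898.6 to 1327 FPKM in Gdpd3+/+ libraries. Gdpd3-/- replicate 6, highest in muscle genes, was lowest in summed Igkv, and without it the Gdpd3-/- mean of summed Igkv was 0.554 times that of Gdpd3+/+, against 0.484 with all libraries. The part of these genes in the Igkv values was not tested.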

How the data were processed

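RNA was extracted from sorted LT-CML stem cells, amplified with the SMART-Seq v4 kit and sequenced as paired-end reads of 150 bases. Per the submitters' processing notes, the tools included Trimmomatic, Trim Galore, cutadapt 1.16, STAR 2.6.1a, featureCounts 1.6.1 and DESeq2, with the build mm9. The authors deposited FPKM values per gene, and gene lengths as another deposited column. FPKM times length was a whole multiple of 1 step for values below 1e5 bases (100% within 0.05), read here as covered bases, and library depths came to 2.13 to 6.28 Gb. Counting of reads by strand, and of reads that fit several genes, is not given in the sources used here. The kit amplifies cDNA, so reads are not independent molecules and such floors cover counting error only. A second deposited table holds the authors' own comparison of the genotypes and was not used.

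Genotypes were compared on log2(FPKM + 0.1) with limma 3.58.1 (R 4.3.3), using a trended prior variance and no further covariate. The 24689 genes that averaged 0.05 FPKM or more entered the fit, and p-values were adjusted over all of them by Benjamini-Hochberg. The fit was tested on simulated data. For measures of composition, all 20 assignments of 3 against 3 libraries were enumerated in an exact permutation test, two-sided. Sequences were taken by gene symbol from GENCODE M21 transcripts (92 of 97 members) and aligned with Biopython 1.88. The transcript was the one in the FPKM table for 70 members, and the coding length equalled the row length for 63. For the others the sequence may differ from that of the row, as with Igkv3-10 and Igkv19-93, whose transcripts did not match. Named segments were the 3 highest of each library, the 10 highest by mean, the calls with the largest changes, and the highest of those at 0 in every library of 1 genotype. Members, lists and tests were chosen with earlier results of these data known. Tried in place of these were a pseudocount of 0.01 or 1, no filter, a minimum mean of 1 FPKM, TMM scaling, quantile normalization, no intensity trend, covered bases in place of FPKM, other sets of segments, and leaving out each library.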

Additional observations from a re-analysis of the deposited data

How the results depend on the processing

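The count of Igkv segments called lower stayed at 3 to 5 under other pseudocounts, filters, scalings and without the intensity trend, and none was called higher under any alternative run. Leaving out 1 library moved it between 0 and 12, and moved all calls between 0 and 3413 around 422. All calls numbered 225 with a pseudocount of 1, 213 with no filter, 673 at a minimum mean of 1 FPKM and 153 without the trend. TMM scaling shifted the log2 median over all genes from 0.24 to 0.04 and turned 270 higher and 152 lower calls into 112 and 254, but the Igkv median was -1.93 there. Quantile normalization, which gives the highest genes of all libraries the same values, brought the ratio of summed Igkv (Gdpd3-/- over Gdpd3+/+) from 0.484 to 0.749 and turned the log2 fold change of Igkv14-126 from -0.95 to 0.09, and leaving out 1 library gave 0.434 to 0.554. Without Igkv14-126 the difference in the leading share turned from 5.04 to -0.762 percentage points (p = 0.9, exact permutation test) and that of the Igkv to Igkc ratio from 0.0124 to -0.0329 (p = 0.2, exact permutation test). Leaving out 1 library gave differences of 3.50 to 6.44 percentage points for the leading share, -0.64 to -0.35 for the effective number, 2.32 to 5.48 percentage points for the Igkv14 share, 0.000406 to 0.0265 for the Igkv to Igkc ratio and -5.33 to -3.33 for segments above 0. Including the 3 Igkv rows of type protein_coding, and leaving out the 5 pseudogenes of GENCODE M21, were chosen after seeing the data and changed no direction. Pseudogene rows could not be included because the table held no Igkv row of that type. No paired analysis was possible because the replicate numbers of the genotypes do not overlap.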

Other observations

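A pair of V gene rows within the kappa locus carry other names and were left out by the rule, so these values were described after they were seen. Gm16637 was at 2252, 781.9 and 2953 FPKM in Gdpd3+/+ replicates 1, 2 and 3 and at 456.2, 402.0 and 207.3 FPKM in Gdpd3-/- replicates 5, 6 and 7, with no overlap between the genotypes. Its length of 347 bases equals the coding length that GENCODE M21 gives for Igkv10-96. Whether Gm16637 is the gene now named Igkv10-96 was not tested. Gm16774 was at 233.9, 764.2 and 722.2 FPKM and at 509.2, 2.89 and 172.9 FPKM, with overlap. The heavy constant gene of IgG1, Ighg1, did not share the direction of Ighm in every library. It was at 1838, 2122 and 2406 FPKM in Gdpd3+/+ replicates and at 3960, 1614 and 625 FPKM in Gdpd3-/- replicates 5, 6 and 7, so Gdpd3-/- replicate 5 was the highest of all 6 libraries.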
